A study of Mus musculus with 22 samples.

Results

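Plasma-activated medium (PAM) is culture medium that has stood under a cold atmospheric plasma (CAP) jet without any cells and is then given to a culture. Its effect when given from day 1 was read here from 7 of the 22 RNA-seq libraries of the series: the 3 libraries of mouse duodenal organoids that received PAM from day 1 (organoid lines 1, 2 and 4) and the 4 untreated libraries (lines 1 to 4). The members were chosen by their labels, not by any measured value. Every line came from 1 wild-type mouse of the outbred CD1 stock, an adult 2 months old, and no library carried an engineered allele. Duodenal crypts were grown in Matrigel with EGF, Noggin and R-spondin 1. The line numbers are those of this text. Lines 1 and 2 were used at passage 12 and 14 and lines 3 and 4 at passage 4 by the labels, while the published list, which numbers its lines differently, gives passage 2 for the pair that matches lines 3 and 4. The jet was driven at 50 W and the medium stood under it for 60 s. PAM was added at day 1 after replating and left for 24 h, fresh medium followed at day 2, and RNA was taken at day 3, although the labels of the same libraries give a treatment time of 30 min. The other 2 groups used here, each of 3 libraries from lines 1, 2 and 4, are indirect CAP from day 1, in which the medium had been treated over another organoid culture, and PAM from day 2. By the published description, PAM from day 1 was freshly made, while PAM from day 2 was made at day 1 and given at day 2 for 24 h.

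The crypts of the small intestine hold stem cells at their base that carry the receptor Lgr5 and are kept by Wnt and Notch signals. Their daughters divide in the transit-amplifying zone and become absorptive enterocytes or secretory cells, among them Paneth, goblet, enteroendocrine and tuft cells. After injury the epithelium loses the expression of many stem cell genes for a time, takes on genes of the fetal gut such as Ly6a and Clu, and rebuilds its crypts under the influence of EGF family ligands, Wnt and the Hippo-YAP pathway. A jet of plasma leaves reactive oxygen and nitrogen species in the liquid, of which the longer-lived ones, such as hydrogen peroxide and nitrite, remain in PAM.

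Values are CP20M, reads per gene scaled to 20 M per library and not divided by gene length, so that levels are compared between libraries and not between genes. The libraries rested on an estimated 20.7 to 28.4 M reads. Organoids hold epithelium in all its lineages, although the labels call the cell type stem cells: the epithelial adhesion gene Epcam stood between 11504 and 17187 in the 7 libraries, while the collagen gene Col1a1 reached at most 4 and the leukocyte gene Ptprc at most 12. The female-specific transcript Xist was found in untreated lines 3 and 4 and in PAM line 4 (10230 to 18979) and was at 7 or less in the other 4 libraries, while Ddx3y of the Y chromosome was found in lines 1 and 2, so the sexes were mixed within both groups. In bulk RNA, fewer cells of a type and less RNA per cell cannot be told apart.

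PAM from day 1 changed the expression of a large set of genes. A gene was called where limma's moderated test gave a Benjamini-Hochberg adjusted p under 0.01 and its log2 fold change was 1 or more in size, and 1775 of 17357 genes tested were called. Of these, 838 genes (4.83% of those tested) were higher with PAM and 937 (5.4%) were lower. The 3 PAM libraries lay above all 4 untreated libraries for 2961 genes (17.1%) and below all of them for 5159 (29.7%). The median log2 fold change over all genes was -0.13, and under median-of-ratios scaling, which brings it to 0.001, the split was 1040 genes higher and 654 lower, so the balance of rises and falls depended on the scaling. Quantile normalization gave 966 higher and 751 lower. Without the PAM library of line 4 the count of calls was 1134. A fit that blocked on organoid line called 1355 genes, 1254 of which were among the 1775.

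**Figure D1:**
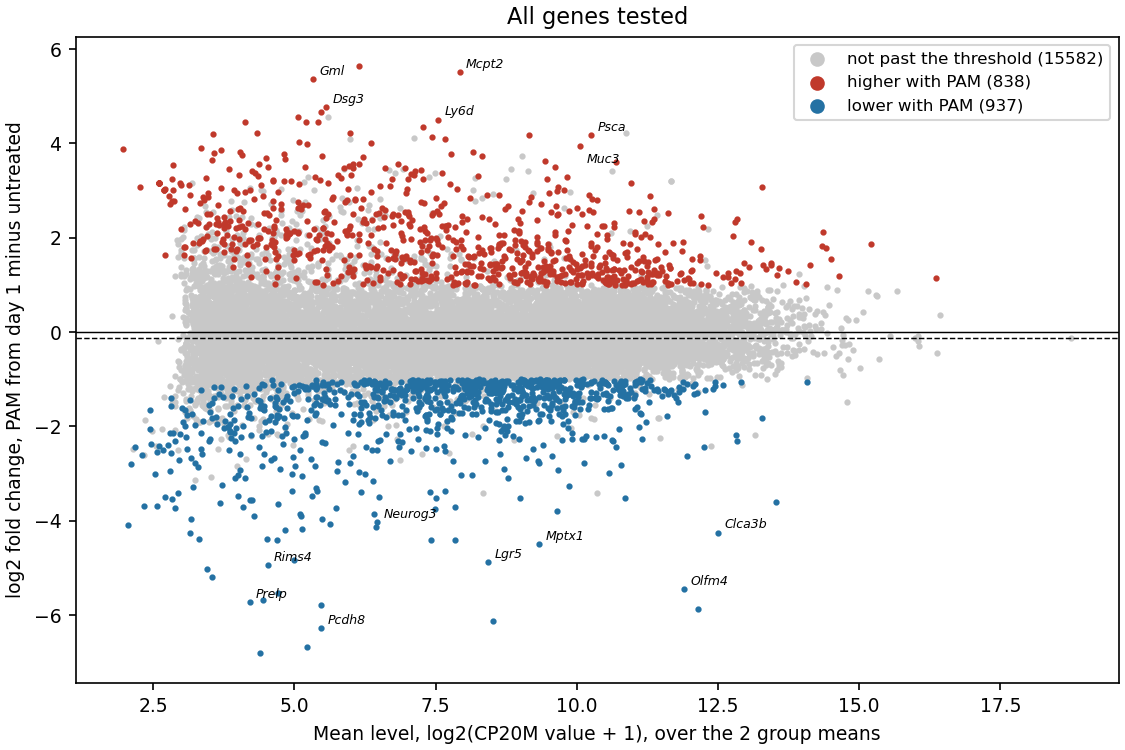
Log2 fold change of PAM from day 1 minus untreated (vertical axis) against the mean level as log2(CP20M value + 1) (horizontal axis) for the 17357 genes tested. Red points are the 838 genes called higher with PAM and blue points the 937 called lower. The dashed line is the median of all genes at -0.13. Olfm4 and Clca3b had some of the highest values among genes with large falls, and Muc3 and Psca some of the higher values among those with large rises. Values are not divided by gene length.

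The largest rises past the threshold included genes of barrier and squamous epithelia. Mcpt2, which encodes a chymase best known from mucosal mast cells, stood at 4, 28, 44 and 92 in untreated lines 1 to 4 and at 1436, 743 and 1963 in PAM lines 1, 2 and 4. The log2 fold change was 5.52 ± 0.87 (SE), with an adjusted p of 0.0017. The largest rises were picked only among genes whose groups did not overlap, so their separation was set by that rule. Of 4 immune cell markers tested, Cd68 and Mrc1, known from macrophages, rose at low levels (log2 fold change 1.57 and 2.18; Mrc1 had an adjusted p of 0.0164 without PAM line 4). The general leukocyte gene Ptprc was at most 12 and the T cell gene Cd3e at most 7 in these libraries. The part of such cells in the rise of Mcpt2 was not tested.

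Muc3, a membrane-bound mucin of the brush border (chromosome 5, 137134922 to 137149322, GRCm38), was one of the most uniform rises. It read 208, 201, 353 and 349 without treatment and 4343, 4152 and 3851 with PAM. All 3 PAM libraries lay in a narrow band far above the untreated ones (log2 fold change 3.93 ± 0.22, adjusted p = 4.27e-05). Dsg3, a desmosomal cadherin of stratified epithelia, rose from 2, 5, 20 and 10 to 248, 188 and 219 (log2 fold change 4.76). Ivl, the precursor of the cornified envelope, rose from 0, 3, 19 and 15 to 114, 123 and 158, although its call was lost without any 1 PAM library or without untreated line 2 (adjusted p up to 0.0257). Nt5e, the ecto-enzyme that makes adenosine from AMP, went from 16, 27, 46 and 46 to 394, 740 and 948 (log2 fold change 4.35). Psca, which encodes a small GPI-anchored surface protein, went from 64, 261, 233 and 785 to 4574, 2998 and 5689, and had an adjusted p of 0.0112 when PAM line 4 was left out. The neighbouring and similar genes Gml and Gml2 rose by 5.36 and 4.57 on the log2 scale, and since reads can be shared between such copies the values of each are uncertain.

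The largest falls past the threshold included stem cell, precursor and immune-related genes. Pcdh8, a protocadherin, fell from 530, 261, 249 and 273 to 0, 10 and 5. At such low PAM values the fold change depends on the pseudocount. Ifitm3, a membrane protein that restricts viral entry, stood at 820, 675, 804 and 711 untreated and at 18, 53 and 42 with PAM (log2 fold change -4.41, adjusted p = 8.47e-05). Clca3b, of the calcium-activated chloride channel regulator family, was abundant without treatment at 27190, 17543, 25593 and 21428 and read 454, 1573 and 2347 with PAM. For each of these genes every PAM library lay below every untreated library, as the rule that picked the largest falls required.

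Crypt base stem cell genes were among the most strongly lowered. Of 16 members tested, 10 fell and 1 rose, and the median log2 fold change of the list was -2.18 against -0.13 over all genes. The member that rose was Prom1, a membrane protein found well beyond the stem cells (log2 fold change 1.15). Lgr5, the R-spondin receptor that marks these cells (chromosome 10, 115450311 to 115587780), read 2822, 1305, 1816 and 1281 in the untreated libraries and 32, 110 and 53 with PAM. That is a log2 fold change of -4.88 ± 0.42, with an adjusted p of 0.000161 and no overlap. Olfm4, a secreted glycoprotein of the same cells (chromosome 14, 79984081 to 80023139), dropped from 22768, 20867, 25431 and 22333 to 212, 612 and 1098. Among the PAM libraries line 1 was the lowest for both genes.

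Further markers fell more evenly. Smoc2, a secreted matrix protein, went from 6606, 5841, 5705 and 6510 to 379, 619 and 659 (log2 fold change -3.52, adjusted p = 4.27e-05), and Rgmb, a BMP co-receptor, from 2837, 2113, 2468 and 2394 to 493, 567 and 541. Ascl2, the transcription factor that keeps stem cell identity, fell less steeply, from 729, 386, 416 and 497 to 147, 181 and 188 (log2 fold change -1.52, adjusted p = 0.00114). Mex3a and Cdca7 fell (log2 fold change -2.46 and -2.27). The call of Msi1, an RNA-binding protein, was lost with the line as a block (adjusted p = 0.0186). Slc12a2, a cotransporter enriched in the crypt, was lower in every PAM library but stayed within the fold limit (log2 fold change -0.96, adjusted p = 0.000349).

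Of the 4 markers of reserve stem cells tested, Lrig1, a negative regulator of EGF receptors, fell from 6393, 5487, 5342 and 5298 to 2336, 2239 and 1882. Bmi1 and Hopx had log2 fold changes of -0.22 and -0.74 and did not pass the threshold. The Wnt pathway showed no uniform shift. Of 15 of its targets and feedback genes tested, 4 fell and 1 rose, with a median of -0.70. Axin2, the classical feedback target, fell from 5951, 4158, 4349 and 4316 to 536, 811 and 642, and Nkd1, another feedback inhibitor, from 39, 23, 83 and 25 to 3 in each PAM library. Rnf43 and Myc, both also targets of the pathway, did not pass the threshold (log2 fold change 0.08 ± 0.15 and 0.32 ± 0.13). Ccnd1, which encodes cyclin D1, was higher in all PAM libraries (14236, 6940 and 8933 against 4072, 3778, 4665 and 4680), but its adjusted p was 0.0101 with the line as a block and its log2 fold change was 0.88 without PAM line 1. Its call was also lost with all 7 groups in one fit and without PAM line 4 or untreated line 1 or 2 (adjusted p up to 0.0201).

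**Figure D2:**
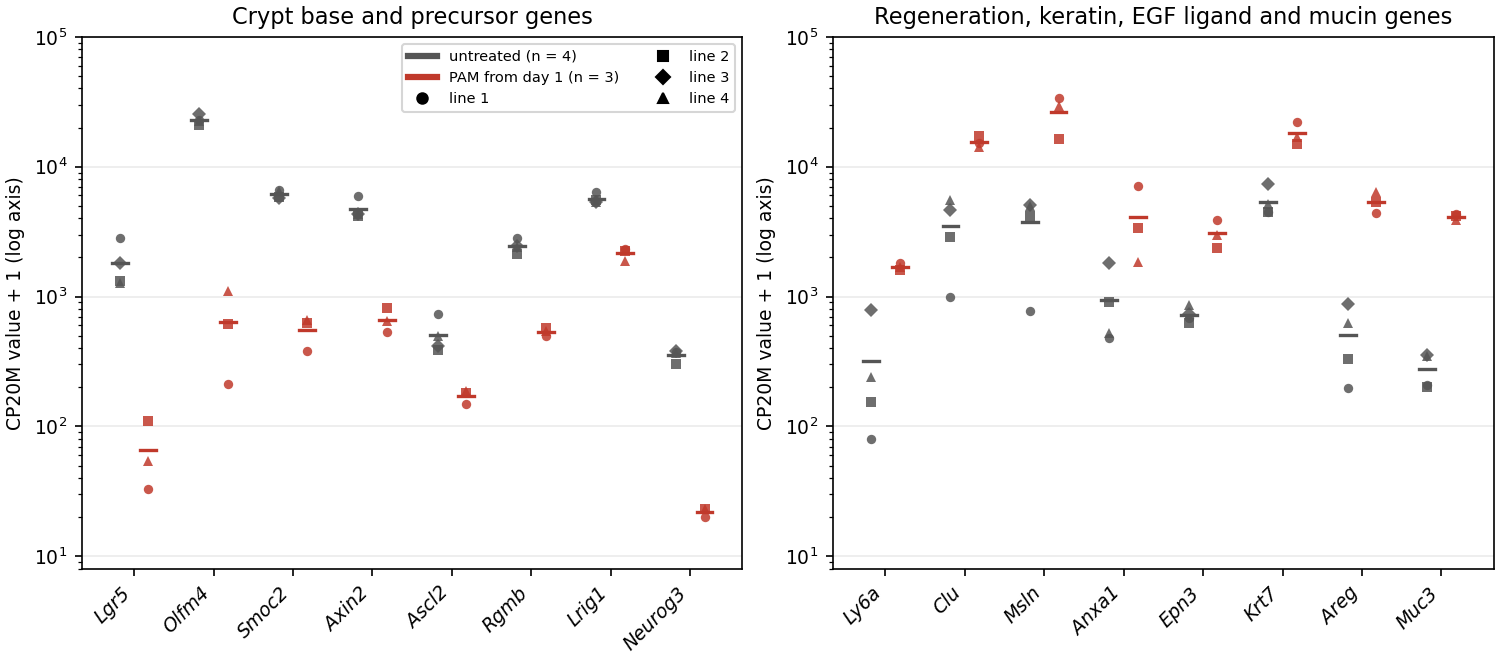
CP20M value + 1 of 16 genes on log axes in the 4 untreated (grey) and the 3 PAM (red) libraries, with the organoid line given by the symbol and the group mean by a bar. In the left panel each of the 8 crypt base and precursor genes lay lower in every PAM library than in every untreated library, and in the right panel each of the 8 regeneration, keratin, EGF ligand and mucin genes lay higher, with the smallest gap for Anxa1.

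Genes of DNA replication and mitosis were lower as a group. Of 34 replication genes tested, 15 fell and none rose, all 34 had a negative fold change, and the median was -0.98. Rfc4, a subunit of the clamp loader, read 578, 530, 562 and 539 untreated and 211, 205 and 186 with PAM (log2 fold change -1.46 ± 0.10, adjusted p = 6.56e-05). Prim1, the primase, and Pola1, the catalytic subunit of DNA polymerase alpha, fell (log2 fold change -1.34 and -1.42). Pcna, the sliding clamp, differed by -0.78 (adjusted p = 0.000287) and stayed within the fold limit. Many members lay close to that limit, so the count of 15 calls was 9 without PAM line 4, 25 at most when another library was left out and 8 under median-of-ratios scaling, while the median ranged from -1.15 to -0.84 over all alternatives.

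Of 31 mitotic genes tested, 11 fell and none rose, with a median of -0.87. Nuf2, of the kinetochore, went from 473, 544, 603 and 570 to 230, 200 and 181 (log2 fold change -1.42), and Bub1b, of the spindle checkpoint, from 1737, 1280, 1553 and 1514 to 798, 523 and 553. The proliferation marker Mki67 read 7547, 4598 and 4519 with PAM against 11723, 8402, 8959 and 8756, without overlap but with an adjusted p of 0.0123. In both genes PAM line 1 was the highest of its group. The count of 11 was 5 without PAM line 4, 21 at most when another library was left out and 4 under median-of-ratios scaling. Histone cluster genes, whose transcripts belong to S phase, gave the highest share of calls of any list, with 14 of 17 lower, none higher and a median of -1.31, and the count was 14 when any 1 library was left out. Hist1h1b, a linker histone, went from 4396, 3590, 3970 and 4604 to 1337, 1239 and 1143 (log2 fold change -1.74, adjusted p = 4.27e-05). Histone genes exist in near-identical copies, so the value of a single one is uncertain.

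The promoters of these groups hold the short elements known from cell cycle genes more often than promoters at large. Sequences were taken from RefSeq (GRCm38.p6) over 250 bases before and 50 after each annotated start, and each element was searched on both strands. TTTNGCGC, an E2F element, was present for 11 of 28 matched replication genes (39.3%) and for 1.57% of 27025 genes with a promoter. TTTGAA, the core of the cell cycle homology region, was present for 19 of 25 matched mitotic genes (76.0%) and for 20.2% of all genes, and CCAAT for 20 (80.0%) and 41.1%. A match is a description of these letters. Replication genes with the E2F element had a median log2 fold change of -1.01 against -0.94 for those without. Mitotic genes differed in the other direction, with medians of -0.8597 with TTTGAA and -0.9969 without, and of -0.8613 with CCAAT and -1.012 without. Of the 14 matched replication genes that fell, 6 held the E2F element. Of the 8 matched mitotic genes that fell, 5 held TTTGAA and 4 held CCAAT. Shown here are upstream windows of 4 replication and 2 mitotic genes that fell, on the strand of the gene from 5′ to 3′, with every match of the element on either strand in capitals. In the window of Mcm5 a forward and a reverse match overlap. Mcm5 and Top2a were within the fold limit under median-of-ratios scaling and without PAM line 2, and Mcm5 also without PAM line 4. Mcm6, the nearest to the fold limit of the genes shown, was not followed in the alternative fits.
Rfc3 (chr5:151651209-151651238, minus strand, log2 fold change -1.43): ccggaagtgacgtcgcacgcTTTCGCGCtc
Mcm6 (chr1:128359725-128359772, minus strand, log2 fold change -1.01): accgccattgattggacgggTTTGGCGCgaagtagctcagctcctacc
Mcm5 (chr8:75109340-75109387, plus strand, log2 fold change -1.05): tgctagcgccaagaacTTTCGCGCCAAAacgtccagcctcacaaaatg
Pola1 (chrX:93632266-93632313, minus strand, log2 fold change -1.42): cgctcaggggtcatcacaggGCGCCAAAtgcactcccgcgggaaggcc
Top2a (chr11:99024190-99024232, minus strand, log2 fold change -1.13): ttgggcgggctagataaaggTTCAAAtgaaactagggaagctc
Kif11 (chr19:37376343-37376381, plus strand, log2 fold change -1.27): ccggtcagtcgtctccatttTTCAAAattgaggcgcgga

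Regulators of G1 moved both ways, with 3 of 20 higher and 3 lower. Cdkn1a, the p21 inhibitor of cyclin-dependent kinases, stood at 2142, 1868, 1986 and 1744 and rose to 5283, 5772 and 4598 (log2 fold change 1.43 ± 0.10, adjusted p = 8.7e-05). Ccnd2, cyclin D2, had the highest values of the list, not divided by gene length, and rose from 10559, 12339, 16417 and 14863 to 48887, 32303 and 37948. Cdk4, the kinase partner of the D cyclins, fell (log2 fold change -1.05, or -0.91 under median-of-ratios scaling), and the inhibitors Cdkn1b and Cdkn2c fell (log2 fold change -1.17 and -1.68).

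Among Paneth cell genes the PAM libraries were several-fold apart, with line 1 the lowest. Lyz1, the Paneth lysozyme, read 20706, 17237, 15293 and 15122 untreated and 2464, 10716 and 4220 with PAM lines 1, 2 and 4. Itln1, intelectin, went from 10963, 9370, 8393 and 11600 to 628, 3117 and 3270. Of 12 members tested, 5 fell and 1 rose, and the median was -1.80, but none of the 5 falls passed with the line as a block (Lyz1, adjusted p = 0.0246) and the call of Lyz1 was lost without any 1 untreated library or without PAM line 1 or 4 (adjusted p up to 0.0353). The member that rose, Pnliprp2, a pancreatic lipase-related protein, went from 647, 888, 728 and 900 to 3521, 5023 and 5704. The defensin members Defa17, Defa24 and Defa26 belong to a family of near-identical copies.

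Goblet cell genes gave 2 rises and 2 falls among 14. Clca1, secreted with the mucus, rose from 3270, 2171, 3339 and 4668 to 8074, 21164 and 13686 (log2 fold change 2.03), with an adjusted p of 0.0147 with the line as a block and 0.0102 without PAM line 4. Muc2, the gel-forming mucin, ranged from 4217 to 11810 untreated and read 6032, 22175 and 7229 with PAM, so that the groups overlapped. Sytl2, which acts in granule secretion, rose in all 3 lines, from 737, 558, 750 and 737 to 1996, 2362 and 2656. The 2 members that fell, Klk1 and Creb3l1, both lost their call with the line as a block (adjusted p = 0.0155 and 0.027).

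Neurog3, the transcription factor that commits cells to the enteroendocrine lineage (chromosome 10, 62133090 to 62134763), was one of the most even falls of all, from 370, 304, 383 and 368 to 19, 22 and 22 (log2 fold change -4.02 ± 0.15, adjusted p = 4.13e-05). Pax4 and Insm1, which act in the same precursors, fell (log2 fold change -1.95 and -2.08), although with the line as a block their adjusted p was 0.0112 and 0.0189. Insm1 also lost its call without any 1 untreated library (adjusted p up to 0.013). Chga, a granule protein of mature endocrine cells, read 324, 2434 and 1735 with PAM against 438, 294, 568 and 776, with overlap. Over the 18 enteroendocrine genes tested, 3 fell and none rose, and the median was 0.03.

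Enterocyte genes gave 3 rises among 28 and a median of -0.09, close to that of all genes. Apob, the apolipoprotein of chylomicrons, rose from 53398, 65472, 53303 and 55396 to 108873, 136845 and 132303, with a log2 fold change of 0.89 under quantile normalization, and Ada, adenosine deaminase, from 250, 241, 406 and 327 to 1883, 3422 and 2223 (log2 fold change 3.02). Sis, the brush border sucrase-isomaltase, was 8112 in PAM line 1 and 33681 in PAM line 2, against 27677 to 33758 untreated. Krt20, of the villus tip, rose by 1.75 on the log2 scale, with an adjusted p of 0.0203 with the line as a block and up to 0.0333 when PAM line 2, PAM line 4 or untreated line 1, 2 or 4 was left out. Of 6 tuft cell genes tested, Avil and Ptgs1 rose, while Pou2f3, the master factor of the lineage, and the taste channel gene Trpm5 did not pass (log2 fold change -0.58 and 0.09) and the marker Dclk1 was at 1 or 0 with PAM. Avil lost its call without PAM line 1, PAM line 4 or untreated line 3 (adjusted p up to 0.0192).

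**Figure D3:**
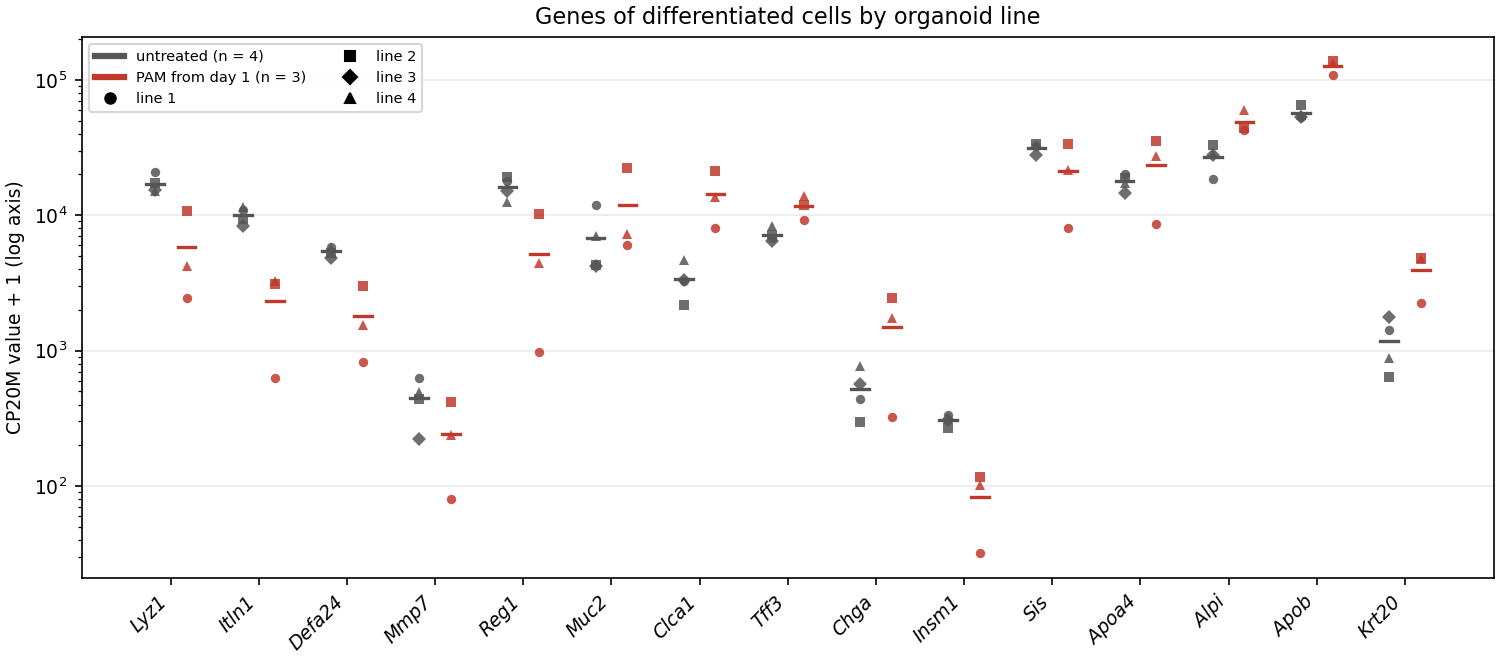
CP20M value + 1 of 15 genes of differentiated cells on a log axis in the 4 untreated (grey) and the 3 PAM (red) libraries, with the line given by the symbol and the group mean by a bar. The PAM library of line 1 (circle) was the lowest of its group for all 15 genes. Clca1, Tff3, Alpi, Apob and Krt20 lay above the untreated libraries in all 3 lines.

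In the Notch pathway, 5 of 15 members fell and 1 rose. Notch1, the receptor of the crypt, read 3579, 2496, 2367 and 2577 untreated and 1138, 1319 and 820 with PAM, without overlap (log2 fold change -1.34, adjusted p = 0.00106). The ligand Dll4 and the secretory factor Gfi1 fell (log2 fold change -1.59 and -1.74), but not with the line as a block (adjusted p = 0.0368 and 0.0257), under which 2 members of the list fell and none rose. The ligand Jag1 rose from 1244, 1544, 1464 and 1466 to 3712, 2670 and 2572, with a log2 fold change of 0.88 without PAM line 1. Hes1 and Atoh1, the opposing factors of lineage choice, did not pass the fold limit (log2 fold change -0.57 and -0.78). Of 16 transcription factors of intestinal identity, 1, Klf4, rose (1286, 1413, 1249 and 1841 to 3540, 3140 and 5670), near the 4.83% of all genes called higher. Hnf4a and Cdx2 differed by -0.08 and -0.48.

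Genes linked to fetal-like regeneration rose together. Of 17 members tested, 8 rose and none fell, 16 had a positive fold change, and the median was 2.14. Clu, clusterin, which marks a stem cell of the injured gut (chromosome 14, 65968483 to 65981547), read 998, 2865, 4602 and 5506 untreated and 15085, 17201 and 14058 with PAM. Ly6a, the surface antigen Sca1 (chromosome 15, 74994877 to 74998031), went from 79, 154, 788 and 241 to 1813, 1603 and 1674. In both, the PAM libraries were alike and the untreated ones spread over several-fold, with line 1 the lowest.

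That spread limited the calls. The log2 fold change of Clu was 2.40 ± 0.51, and its adjusted p was 0.0119 with the line as a block and 0.0186 to 0.0211 when a PAM library or untreated line 2 was left out, while Ly6a passed with the block and was lost in 6 of the 7 fits that each left out 1 library, all but the one without untreated line 3, at an adjusted p of at most 0.025. Over the list the block gave the same count of 8, and leaving out untreated line 2 gave 4. Msln, mesothelin, went from 770, 4147, 5091 and 4968 to 33976, 16367 and 29305 (adjusted p = 0.0167 with the block). Its call was also lost without PAM line 1 or 4 or untreated line 2 (adjusted p up to 0.0235). Other members held their calls in every fit, among them Epn3, an endocytic adaptor (678, 626, 728 and 858 to 3872, 2361 and 2975), Krt7, a simple-epithelial keratin (4450, 4474, 7347 and 5199 to 22160, 14973 and 17034), and Ly6d (25, 12, 81 and 44 to 445, 1378 and 707). Anxa1, annexin A1, did not pass (log2 fold change 2.13, adjusted p = 0.0144), although its PAM libraries all lay above the untreated ones.

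Among targets and factors of the Hippo-YAP pathway, 5 of 17 rose and 1 fell, and the median was 1.14. Of the rises, Lats2, Wwtr1 and Tead4 are factors of the pathway itself, as is Tead2, which fell. F3, tissue factor, rose from 127, 194, 432 and 460 to 2648, 1843 and 3610 (log2 fold change 3.29, adjusted p = 0.000951). It was the only member past the threshold with the line as a block, since Ajuba, Lats2, Wwtr1, Tead4 and the falling Tead2 had adjusted p-values there between 0.0134 and 0.0264. The classical targets Cyr61, Ctgf and Ankrd1 had log2 fold changes of 0.84, 2.79 and 1.98 and did not pass.

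Of the EGF receptor ligands tested, 5 rose. Areg, amphiregulin, read 198, 328, 882 and 628 untreated and 4362, 5371 and 6387 with PAM (log2 fold change 3.60 ± 0.46, adjusted p = 0.000649). Btc, betacellulin, rose from 222, 299, 463 and 406 to 1647, 1968 and 2140, and Tgfa and Hbegf by 1.19 and 1.36 on the log2 scale. The receptor gene Egfr differed by 0.78 within the fold limit. Over the family, 6 of 13 rose and 1, Lrig1, fell, with the same counts under the block. Of 20 AP-1 and immediate early genes, 7 rose and none fell (median 0.92), and of 14 MAP kinase phosphatases and Sprouty genes, 5 rose and none fell (median 0.31). Fos went from 157, 327, 291 and 218 to 1129, 1003 and 957 and Fosl1 from 23, 34, 54 and 45 to 306, 174 and 229. Jun did not pass (log2 fold change -0.34 ± 0.16). Dusp6, the phosphatase that restrains ERK, rose from 622, 931, 945 and 1018 to 2721, 2458 and 3007.

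Of 13 keratins tested, 6 rose and none fell (median 1.75), and 2 passed with the line as a block. Krt4, of stratified epithelium, went from 81, 248, 322 and 307 to 3878, 2387 and 1474 (log2 fold change 3.49, adjusted p = 0.01 with the block). The main keratins of the gut, Krt8 and Krt19, differed by 0.77 and 0.78 on the log2 scale, within the fold limit. Of 11 desmosome genes, Dsg3 and the envelope proteins Evpl and Ppl rose and none fell. Cldn4, a sealing claudin, was the single call among 17 tight junction genes (780, 643, 1523 and 1173 to 3482, 5227 and 3893), near the 4.83% of all genes called higher.

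Of 21 laminins, integrins and epithelial collagens, 6 rose and none fell, with a median of 0.97 and 8 rises under the block. Itgb4, an integrin subunit of hemidesmosomes, rose from 5131, 4900, 5306 and 5518 to 16118, 10992 and 13944. PAM line 1 was the highest, and the groups did not overlap. Without PAM line 4 the list had 3 calls. Epha2 rose (578, 894, 1312 and 1401 to 7020, 3600 and 5144) and Ephb4 fell by 1.17 on the log2 scale among 14 Eph receptors and ephrins, while Ephb2 and Ephb3, which position crypt cells, differed by -0.34 and -0.70 within the fold limit. Of 19 channels and fluid transporters, 2 fell and none rose, against 5.4% of all genes called lower, with the water channel gene Aqp1 at a log2 fold change of -2.20.

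**Figure D4:**
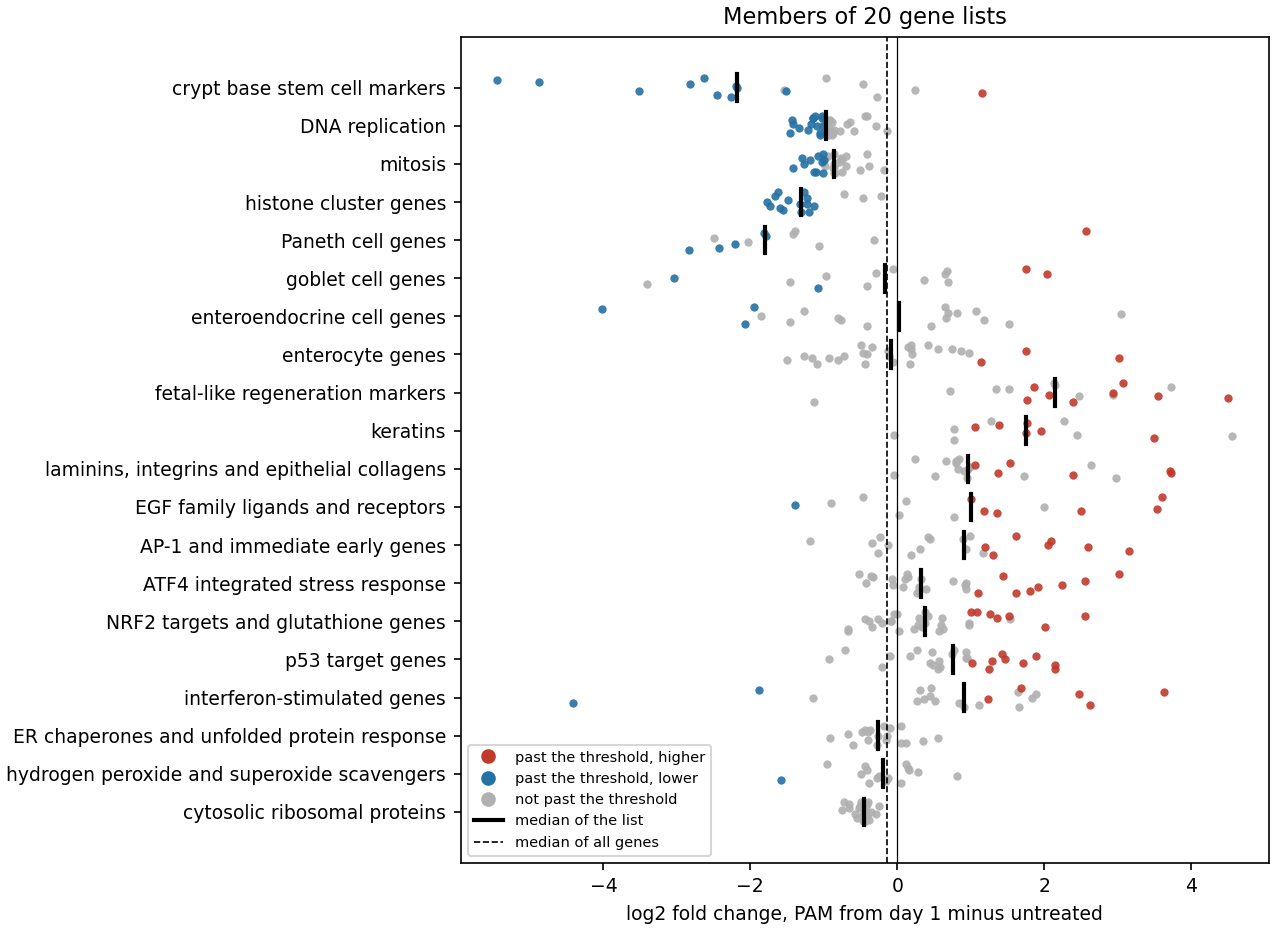
Log2 fold change of PAM from day 1 minus untreated for each tested member of 20 gene lists, with members past the threshold in red (higher) or blue (lower) and the median of each list as a black bar. The medians ran from -2.18 for crypt base stem cell markers to 2.14 for fetal-like regeneration markers, against -0.13 for all genes (dashed line).

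The kinases of the integrated stress response act through the transcription factor ATF4, which binds composite C/EBP-ATF elements. Of 27 genes of this response tested, 8 rose and none fell, and the median was 0.32. Slc7a11, the cystine importer that feeds glutathione synthesis (chromosome 3, 49892526 to 50443614), read 779, 784, 1206 and 895 untreated and 5901, 4640 and 5434 with PAM, a log2 fold change of 2.55 ± 0.16 (adjusted p = 5.54e-05). Chac1, which breaks down glutathione, rose from 157, 173, 132 and 180 to 473, 769 and 478, and Ddit3, the factor CHOP, from 208, 220, 246 and 206 to 404, 724 and 733. Trib3, a pseudokinase, rose least in PAM line 1 and had an adjusted p of 0.0212 with the block. Its call was also lost without PAM line 2 or 4 or untreated line 2, 3 or 4 (adjusted p up to 0.018). Asns, asparagine synthetase, did not pass (log2 fold change 0.29 ± 0.11). Without PAM line 4 the list had 5 calls.

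The element TGATGNAA, searched on both strands of the same RefSeq promoters, was present for 7 of 23 matched genes of this list (30.4%) and for 4.51% of all genes. Of the 7 matched genes that rose, 5 held it, and the median log2 fold change was 1.80 with the element and 0.28 without. The windows of 4 of these genes are shown on the strand of the gene, with every match of the element on either strand in capitals. Each window holds it in its reverse form, and that of Slc7a11 also in its forward form.
Chac1 (chr2:119351029-119351076, plus strand): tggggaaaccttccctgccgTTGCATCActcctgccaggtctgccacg
Slc7a11 (chr3:50443633-50443680, minus strand): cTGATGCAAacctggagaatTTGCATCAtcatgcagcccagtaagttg
Vldlr (chr19:27216800-27216847, plus strand): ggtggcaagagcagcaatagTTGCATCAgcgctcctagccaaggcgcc
Nupr1 (chr7:126625553-126625600, minus strand): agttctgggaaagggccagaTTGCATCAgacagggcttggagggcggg
Vldlr, a lipoprotein receptor, rose from 705, 611, 261 and 619 to 2084, 2298 and 3003, and Nupr1, a small stress-induced nuclear protein, from 204, 194, 219 and 539 to 786, 980 and 1263. Nupr1 had an adjusted p of 0.0105 to 0.0164 when untreated line 2, untreated line 3 or PAM line 4 was left out.

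None of 19 chaperones and unfolded protein response genes of the endoplasmic reticulum passed the threshold, and their median was -0.26. Hspa5, the chaperone BiP, read 9149, 10552 and 8981 with PAM against 10351, 9596, 11480 and 12001, and the groups overlapped. Of 17 heat shock genes, 1, Hspa1b, rose (189, 249, 331 and 426 to 1346, 828 and 632, adjusted p = 0.0278 with the block), near the 4.83% of all genes called higher. The call of Hspa1b was also lost with all 7 groups in one fit and without PAM line 1 or 2 or untreated line 2 (adjusted p up to 0.0161). Its near-identical copy Hspa1a did not pass (adjusted p = 0.0113). The median of the heat shock list was -0.23.

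Of 33 NRF2 targets and glutathione genes, 7 rose and none fell (median 0.37), and 9 rose with the block. Hmox1, heme oxygenase 1, went from 75, 66, 155 and 131 to 383, 367 and 485 (log2 fold change 2.02, adjusted p = 0.00137), and Me1 and the exporter Abcc3 rose by 1.08 and 1.36 on the log2 scale. Nqo1 and Gclm, 2 other targets of the same factor, did not pass (log2 fold change 0.30 ± 0.20 and -0.08 ± 0.12). Enzymes that remove hydrogen peroxide and superoxide showed 1 call among 16, a fall of Prdx4 (469, 411, 526 and 605 to 155, 153 and 193), near the 5.4% of all genes called lower. Catalase, Cat, read 2984, 6076 and 3925 with PAM against 6820 to 9412 untreated, with an adjusted p of 0.0106. Mt1 and Mt2, the metallothioneins, did not pass (log2 fold change -1.27 and -1.82). The zinc importer Slc39a4 rose from 2148, 2223, 2607 and 2888 to 5815, 7505 and 8326. It was the 1 call among 12 of that list, against 4.83% of all genes called higher.

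Of 16 genes of NADPH oxidases and nitric oxide and tetrahydrobiopterin synthesis, 2 rose and 2 fell. Nox1, the superoxide-producing oxidase of the epithelium, fell from 1423, 950, 1999 and 1977 to 112, 209 and 467, and Gch1, the first enzyme of tetrahydrobiopterin synthesis, rose from 251, 438, 495 and 625 to 1806, 2052 and 2380. Arg2, the mitochondrial arginase, fell by 1.91 on the log2 scale, but its adjusted p was 0.0108 without PAM line 4 and 0.0112 with all 7 groups in one fit. Nos3, the endothelial nitric oxide synthase, rose by 1.27 and lost its call without a filter on low values, without any 1 PAM library and without untreated line 2, 3 or 4 (adjusted p up to 0.0212). Nos2 and Duox2 overlapped between the groups. Of 8 targets of the aryl hydrocarbon receptor, Cyp1a1 and Cyp1b1 rose (log2 fold change 3.47 and 3.70), but both had low and scattered untreated values of 1 to 73 and kept it, with 1 library left out at a time, only without untreated line 3.

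Targets of p53 rose as a group. Of 26 tested, 9 rose and none fell, 22 had a positive fold change, and the median was 0.76. Plk3, a stress kinase, went from 207, 224, 272 and 240 to 1087, 1066 and 976 (log2 fold change 2.15 ± 0.12, adjusted p = 4.27e-05), and Gdf15, a secreted stress cytokine, from 310, 504, 372 and 570 to 1965, 1638 and 2124. Eda2r and Zmat3 rose by 1.47 and 1.25 on the log2 scale. Mdm2, the ubiquitin ligase that limits p53, differed by 0.95 within the fold limit, and the death gene Bbc3 (PUMA) did not pass (log2 fold change 0.17 ± 0.14). The count of calls was 8 to 12 when any 1 library was left out.

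Of 24 BCL2 family and caspase genes, 2 rose and 1 fell: the survival gene Bcl2l1 (1082, 1318, 1263 and 1381 to 3494, 2514 and 2670) and Bok were higher, and Bcl2 was lower (577, 407, 447 and 459 to 166, 205 and 192). These counts lie near the shares over all genes (4.83% higher and 5.4% lower). Of 13 inflammasome and gasdermin genes, the adaptor Pycard fell from 3404, 3575, 3652 and 3188 to 508, 906 and 754 (log2 fold change -2.29, adjusted p = 0.000101), Nlrp6 fell by 1.21 on the log2 scale and Gsdmd, the pore former, rose by 1.29. Among 17 genes of ferroptosis and iron handling, Slc7a11 and the iron reductase Cybrd1 rose, the latter with an adjusted p of 0.0117 without PAM line 4, whereas Gpx4, the main guard against lipid peroxidation, did not pass (log2 fold change 0.15 ± 0.16).

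Immune-related genes of the epithelium moved both ways. Of 21 interferon-stimulated genes, 5 rose and 2 fell (median 0.91). Oasl1, which curbs Irf7 translation, rose from 176, 156, 195 and 262 to 2079, 2439 and 2754 (log2 fold change 3.63 ± 0.18, adjusted p = 4.27e-05), and Irf7 itself from 199, 174, 207 and 194 to 425, 792 and 728. Ifit1 and Isg15 did not pass. Ifitm2 and Ifitm3 fell. Of 18 chemokines and interleukin-1 family genes, 5 rose and 2 fell: the antagonist Il1rn rose from 91, 148, 364 and 398 to 2009, 1764 and 2234 and Cxcl16 from 304, 682, 1040 and 1009 to 2825, 3275 and 4192 (adjusted p = 0.0126 without PAM line 4), while Ccl9 and Ccl28 fell (log2 fold change -3.74 and -2.90). None of 11 Reg and other antimicrobial genes passed, and Reg3g, at 58, 1056 and 439 with PAM against 2212 to 4100 untreated, had an adjusted p of 0.0109.

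Metabolic lists changed in single genes, and their counts are to be set against 4.83% of all genes called higher and 5.4% called lower. Of 22 PPAR targets and lipid genes, 4 rose and 1 fell, with Cidec, of lipid droplets, at 92, 105, 136 and 107 untreated and 404, 682 and 620 with PAM, and the receptor gene Pparg at 667, 792, 752 and 909 against 1906, 1385 and 2012. Of 24 genes of cholesterol and fatty acid synthesis, 1 fell and none rose, and the median was -0.01. Hk1 (773, 494, 563 and 709 to 3116, 2087 and 4000) and the glucose transporter Slc2a1 rose and Pdk1 fell among 25 glycolysis and hypoxia genes. The call of Pdk1 was lost under median-of-ratios scaling, with all 7 groups in one fit and without PAM line 1 or 4 or untreated line 1, 2 or 4 (adjusted p up to 0.0189). Of 23 Myc and ribosome biogenesis factors, Mycl and Dkc1 fell (log2 fold change -2.39 and -1.07) and none rose (median -0.51), and of 13 polyamine genes Paox rose and Arg2 and Sms fell. Dkc1 and Sms were within the fold limit under quantile and median-of-ratios scaling, Dkc1 also without PAM line 4 and Sms with the line as a block and without untreated line 3. None of 28 cytosolic ribosomal protein genes reached the fold limit, yet all 28 had a negative fold change (median -0.45).

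Other RNAs were followed as a check of composition. Of 12 mitochondrially encoded genes, mt-Nd5 and mt-Nd6 fell and none rose, and the median was -0.78 with all 12 below 0. The fold change of mt-Nd5 was -0.88 without PAM line 4 and -0.91 under median-of-ratios scaling. The nuclear long noncoding RNA Malat1 rose from 13534, 22818, 26502 and 16544 to 97847, 56950 and 60350, Neat1 rose by 1.25 on the log2 scale (adjusted p = 0.0152 with the block) and Fer1l4 by 3.81, among 11 such RNAs. Neat1 also lost its call without any 1 PAM library and without untreated line 4 (adjusted p up to 0.0197). Among markers of other cells and organs, none of 3 mesenchymal and none of 8 stomach and colon markers passed, and of 3 endothelial and nerve markers Tubb3 fell from 31, 28, 42 and 38 to 6, 6 and 8. Of the 8 stomach and colon markers tested, 7 had a positive fold change, with a median of 1.06, and the block gave 1 higher and 1 lower. Tff1, a stomach gene, read 86, 1229, 1086 and 2785 untreated and 6332, 3715 and 14546 with PAM lines 1, 2 and 4, without overlap. Gkn1, another stomach gene, reached 2714 in PAM line 4 against 400 and 368 in lines 1 and 2 and 7 to 390 untreated. The 12 stomach and colon markers listed summed to 4957 to 19499 with PAM and to 521 to 3611 untreated. Their part in the other results was not tested. Of 9 epithelial markers, Krt18 rose (log2 fold change 0.97 without untreated line 2 and 0.96 under quantile normalization) and none fell, and none of 5 sex-linked genes passed.

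PAM from day 1 was then set against indirect CAP from day 1, the other conditioned medium given over the same time, with no untreated libraries in the comparison. At the threshold, 0 of 17634 genes (0%) passed, with 3820 at an unadjusted p under 0.05 and a lowest adjusted p of 0.165. The libraries of the same line deviated together in these groups, and with the line as a block the lowest adjusted p was 0.0203. At an adjusted p under 0.05 and the same fold limit, a setting added after the data had been seen, the blocked fit gave 206 genes higher with PAM (1.17%) and 401 lower (2.27%). Of 16 crypt base stem cell genes, 10 were then lower with PAM and none higher. Olfm4 averaged 641 ± 444 (SD, n = 3) with PAM and 5910 ± 2686 with indirect CAP, a log2 difference of -3.38, and Lgr5 averaged 65.0 ± 40.4 and 457 ± 237. Neurog3 was 21.0 ± 1.73 with PAM and 192 ± 71.1 with indirect CAP.

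In the same fit, 4 of 17 regeneration genes were higher with PAM than with indirect CAP and none lower. Clu averaged 15448 ± 1603 against 9551 ± 2678 (log2 difference 0.72, adjusted p = 0.041 with the block, within the fold limit). Muc3 was 4115 ± 248 against 1025 ± 602 (log2 difference 2.16) and Ada 2509 ± 808 against 682 ± 361. No member of the EGF family, p53, NRF2, DNA replication or mitosis lists passed this setting, and the median difference of the mitotic genes was -0.50 against -0.14 over all genes. A p that misses the threshold does not show that the media act alike.

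Lastly, PAM from day 1 was compared with PAM from day 2, which was in the culture over the final day before RNA was taken. The medium of the latter had been made at day 1. The age of the medium and the time of exposure therefore differ together and cannot be told apart. Here too 0 of 17354 genes (0%) passed the threshold, with 4651 at an unadjusted p under 0.05 and a lowest adjusted p of 0.0503, or 0.0198 with the line as a block. At an adjusted p under 0.05 and the same fold limit, the blocked fit gave 657 genes higher with PAM from day 1 (3.79%) and 320 lower (1.84%). Cell cycle genes stood out in number: 27 of 31 mitotic and 23 of 34 replication genes were higher with PAM from day 1 and none was lower. Mki67 averaged 5555 ± 1726 with PAM from day 1 and 1821 ± 994 with PAM from day 2, and 9460 ± 1526 without treatment. Ccnd2 averaged 39713 ± 8432 and 8328 ± 4524 (log2 difference 2.37). Crypt base stem cell genes gave no call between the days, with Olfm4 at 641 ± 444 and 496 ± 343 and Lgr5 at 65.0 ± 40.4 and 44.0 ± 46.1.

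Of 27 genes of the ATF4 response, 6 were lower with PAM from day 1 than from day 2 and none higher, as were 3 of 19 AP-1 genes. Nupr1 averaged 1010 ± 240 against 8510 ± 7227 (log2 difference -2.77) and Atf3 308 ± 118 against 1354 ± 725 (-2.05). Slc7a11 was 5325 ± 638 against 8131 ± 1885, a difference that did not pass (adjusted p = 0.107 with the block). Goblet and regeneration genes were higher with PAM from day 1, at 6 of 14 and 5 of 17, with none lower. Clca1 averaged 14308 ± 6567 against 3136 ± 1255 and Ly6a 1697 ± 107 against 698 ± 109. Mcpt2 averaged 1381 ± 612 with PAM from day 1, 349 ± 447 with indirect CAP from day 1 and 78.7 ± 98.9 with PAM from day 2.

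**Figure D5:**
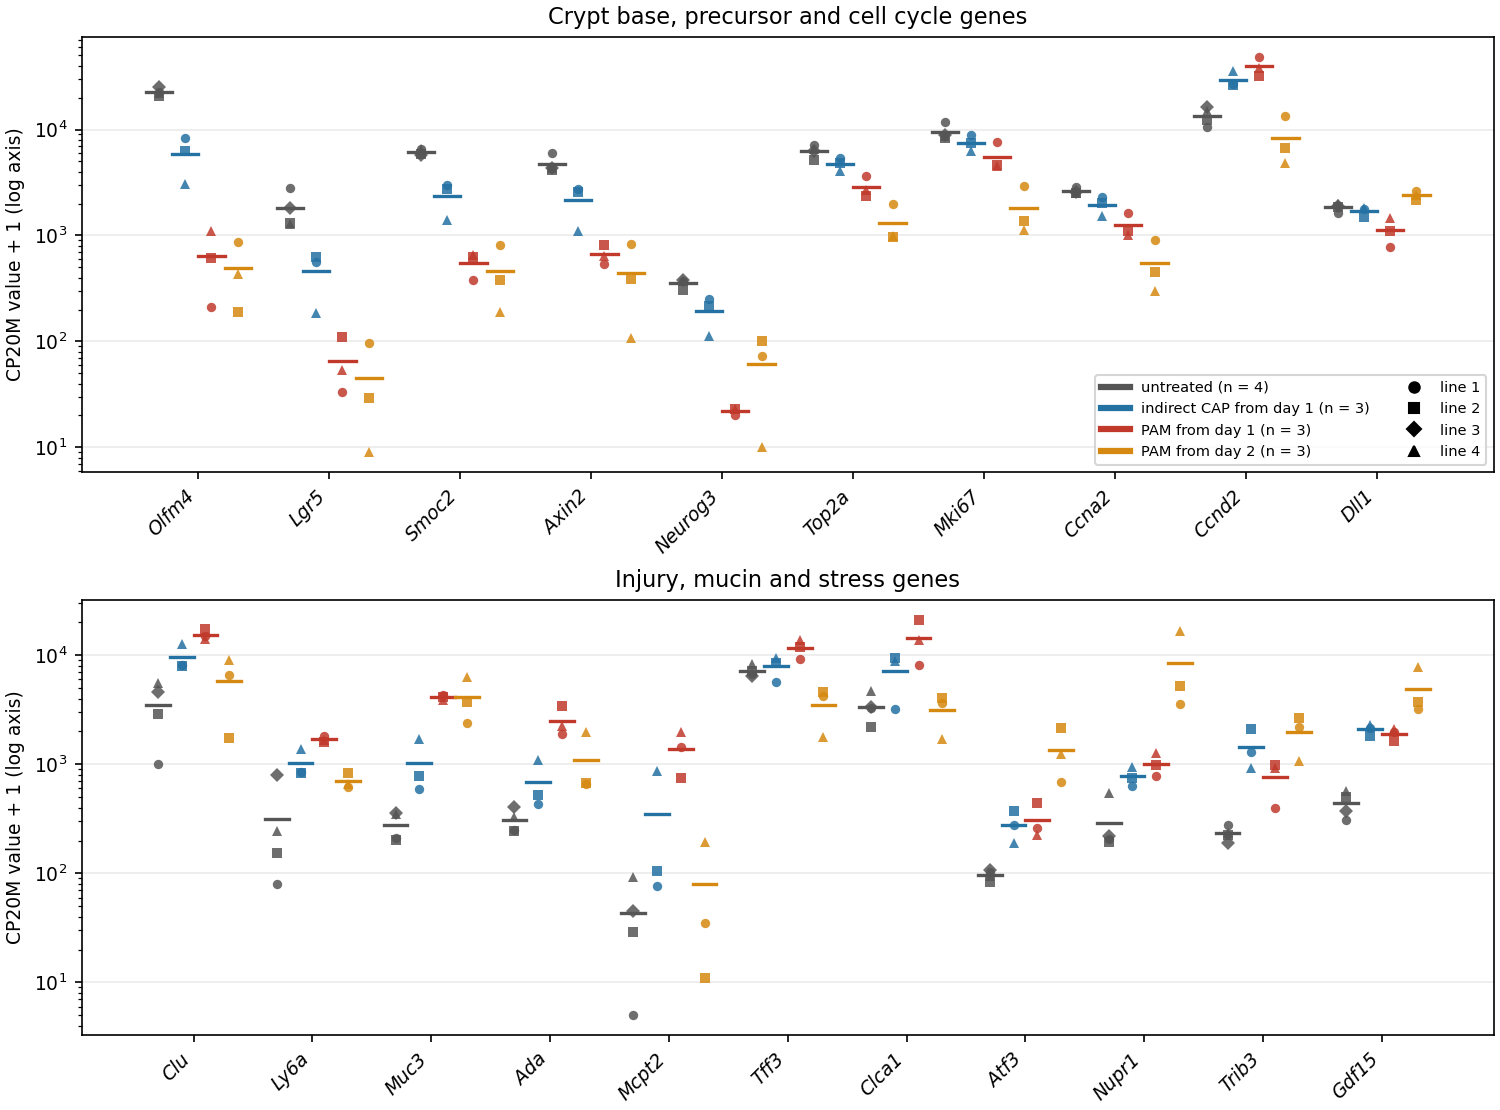
CP20M value + 1 of 21 genes on log axes in untreated organoids (grey, n = 4), indirect CAP from day 1 (blue, n = 3), PAM from day 1 (red, n = 3) and PAM from day 2 (orange, n = 3), with the line given by the symbol and the group mean by a bar. Olfm4, Lgr5, Smoc2 and Axin2 were lowest under both PAM groups, Top2a, Mki67 and Ccna2 lay between indirect CAP and PAM from day 2, and Mcpt2 had its highest mean with PAM from day 1.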

How the data were processed

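RNA was measured in 22 libraries, of which 13 enter here: 4 untreated, and 3 each with indirect CAP from day 1, PAM given from day 1 and PAM given from day 2. The deposited values are a score: the authors counted reads per gene and scaled them to 20 M per library (CP20M), and the file holds them rounded up to whole numbers. The published legend defines CP20M per kilobase of transcript, but the values were read as not divided by gene length, since they sum to about 20 M in each library and low values of all genes share the same steps. The submitters' processing notes name Trimmomatic 0.36, STAR 2.5.3a and HTSeq 0.9.1 and the builds GRCm38.p4 and mm10. Depth was therefore estimated from the steps between low values, with an error of at most 0.546% in 8 simulated libraries.

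Genes that reached 10 in 3 or more of the fitted libraries were tested with limma 3.58.1 in R 4.3.3 (moderated test with trend, two-sided) on log2(value + 1), which understates the change of low genes. Only the groups compared entered a fit. A call needed an adjusted p under 0.01 (Benjamini-Hochberg) together with a difference of 1 on the log2 scale, and every adjusted p given is from such a fit. The test was tried on simulated data. Figures were drawn with matplotlib 3.10.9 in Python 3.11.15. Of 52636 genes, 52403 had an entry in GENCODE vM21, the source of gene coordinates.

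The groups, the 54 gene lists and the tests were chosen with earlier results of these data known. Named are the 15 largest rises and the 15 largest falls that were called without overlap, with a mean of at least 100 in the higher group and no predicted gene or pseudogene, then key genes of each list, up to 6 further called members of each, and up to 2 members with the highest mean values in lists without a call. A few members outside this rule (Prom1 and genes whose promoters are shown) were named after their values were seen.

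The organoid line was tried as a replicate block, since each line is 1 mouse. Deviations from the group means correlated between libraries of the same line at 0.512 to 0.718 for PAM from day 1 and indirect CAP, and at 0.233 to 0.603 for PAM from day 1 and day 2. Against the untreated libraries they were 0.658 in line 4, 0.170 in line 2 and -0.0424 in line 1, while PAM line 1 correlated at 0.301 with untreated line 2 and PAM line 2 at 0.491 with untreated line 1. The pairing with the untreated libraries thus rests on the labels for lines 1 and 2, and blocked values against them are to be read with that. Other alternatives were quantile and median-of-ratios scaling, a pseudocount of 10, no filter, a filter at 50, all 7 groups in one fit, no fold limit at an adjusted p under 0.05, and leaving out each library; median-of-ratios scaling, the filter at 50 and the fit of all 7 groups were run only against the untreated libraries. Some genes of the lists are counted but not reported here.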

Additional observations from a re-analysis of the deposited data

Results flagged for a closer look

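Of 30 genes checked for a single untreated library far from the other 3, Pcdh8 was picked out. It read 530 in untreated line 1 and 273 in the nearest library, and the gap was 0.915 of the range of the group, above Dixon's 95% critical value for 4 samples. Chance picks out about 1 in 20 such groups.

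For 2 of 327 named genes compared, every library with PAM from day 1 lay on one side of the untreated libraries and every library with PAM from day 2 on the other. Dll1, a Notch ligand, averaged 1844 untreated, 1114.67 with PAM from day 1 and 2403 with PAM from day 2. Tff3, the trefoil peptide of goblet cells, averaged 7166.5 untreated, 11661.3 with PAM from day 1 and 3500 with PAM from day 2. In limma's direct comparison of the PAM groups the adjusted p was 0.0594 for each gene, and with the line as a block it was 0.0381 for Dll1 and 0.0426 for Tff3.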

How the results depend on the processing

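Between PAM from day 1 and untreated, 1134 to 1668 genes were called when 1 library was left out, 489 to 826 higher and 645 to 975 lower, and the lowest count was without PAM line 4. With an adjusted p under 0.05 and no fold limit, 7253 genes were called, 2634 higher and 4619 lower. A replicate block for organoid line gave 1355 calls, although the pairing of lines 1 and 2 with their untreated libraries was weak. Of 211 named genes that were called, none reversed under any alternative, and 40 lost their call under the block and 53 without PAM line 4, where 209 could be fitted. Between PAM from day 1 and either indirect CAP or PAM from day 2, the count was 0 under quantile normalization, a pseudocount of 10, no filter, the block, an adjusted p under 0.05 with no fold limit, and without each library. A blocked fit at an adjusted p under 0.05 and the same fold limit, chosen after seeing the data, called 607 genes against indirect CAP and 977 against PAM from day 2. With 3 or 4 libraries a group and values scaled before deposit, small changes in genes of low level were not detectable.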
